A study of Homo sapiens with 2 samples.

Results

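The ATP-binding cassette (ABC) transporter superfamily was taken as every gene of the deposited table whose symbol is ABC, a subfamily letter from A to G and a number, which gave 46 of 29972 genes. These fell into 12 genes of subfamily A, 9 of B, 12 of C, 4 of D, 1 of E, 3 of F and 5 of G. Polyadenylated RNA had been sequenced from 2 subcutaneous tumours of NCI-N87, an established human gastric carcinoma line with amplified ERBB2 (HER2), carried in nude mice, which lack most T cells. 1 tumour had received no treatment, and 1 was labelled refractory to trastuzumab emtansine (T-DM1), a HER2 antibody linked to the maytansinoid microtubule poison DM1. T-DM1 dosing was at 3-week intervals over 18 weeks. Each group is 1 library from 1 tumour, so no value below has a replicate, no test across samples was possible, and every difference is between these 2 libraries.

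ABC proteins bind and hydrolyse ATP at paired nucleotide-binding domains. In most members these drive the movement of lipids, peptides, conjugates or drugs across a membrane, whereas the E and F members lack membrane-spanning domains and act at the ribosome. The B, C and G subfamilies hold the exporters known from multidrug resistance, among them ABCB1 (P-glycoprotein), for which maytansinoids are known substrates. Subfamily A carries mainly lipids, and subfamily D acts mainly in peroxisomes.

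The libraries held 75722114 expected counts (untreated) and 59902712 (refractory). ABC genes took 0.156% of the counts in the untreated tumour (95% Wilson interval 0.156% to 0.157%) and 0.162% in the refractory tumour (0.161% to 0.163%). Each of the 6 markers fixed for the line (ERBB2, EPCAM, CDH1, KRT8, KRT18 and KRT19) differed by less than 2-fold between the libraries, with ERBB2 at 7267 and 7975 CPM (counts divided by the scaled library size, in units of 1000000 counts). Of 13 markers of fibroblasts, endothelium and leukocytes, 10 were under 1 CPM in both libraries, and COL1A2, COL3A1, DCN, CDH5 and CD3E had no count in either. The others were COL1A1 at 2.92 and 1.80 CPM, VWF at 1.39 and 0.202 CPM and the macrophage gene CD68, which carcinoma cells can also express, at 3.62 and 29.2 CPM. The 5 fibroblast markers summed to 2.94 and 2.06 CPM and the 4 endothelial ones to 1.90 and 0.287 CPM. The 4 leukocyte ones summed to 3.69 and 29.5 CPM, nearly all of it CD68. These markers are human genes and the tumours grew in mice, so the sums do not measure host cells. The table lists human genes, and whether mouse host reads reached any ABC gene, or what part other cells had in the values, was not tested.

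A gene is called described where the higher library had at least 1 CPM. That left 31 of the 46 ABC genes, 26 of them at 1 CPM or more in the untreated tumour and 30 in the refractory one. Each change is the log2 ratio of the refractory to the untreated level with 1 CPM added to each. Adding it shrinks the change of scarce genes. A gene counts as higher or lower at 2-fold on that scale. By this rule 7 ABC genes were higher (ABCA1, ABCA7, ABCA9, ABCB6, ABCC2, ABCC6 and ABCF1), 3 were lower (ABCA3, ABCA12 and ABCA13), and 21 lay between. Over all 14167 described genes, 9.80% were higher and 11.0% lower, against 22.6% and 9.68% of the described ABC genes. The share of lower ABC genes was therefore near the background. The median log2 of the described ABC genes was 0.32, and that of all described genes 0.03. 23 of the 31 were above 0 and 8 below. Among the 31, 6 reached 1 CPM in 1 library only (ABCA9, ABCA10, ABCA13, ABCC6, ABCC11 and ABCG2), so their place among the described genes depends on the library in which they are high. Over genes at 1 CPM or more in both libraries, 5 of 25 ABC genes were higher and 2 lower, beside 8.55% and 7.69% of 12674 genes. ABCA9, with a log2 of 1.06, lay just past the 2-fold limit, and ABCG2, with 0.95, just short of it.

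The number of ABC genes called moved with the rule. With 0.1 CPM added in place of 1, 10 were higher and 3 lower, beside 11.9% and 13.5% of all described genes. With 5 CPM added, 4 were higher and 1 lower, beside 5.80% and 5.93%. With 1 added on the deposited FPKM scale, where several of these genes lie under 1, 4 were higher and 1 lower as well, beside 7.98% and 8.10%. With 0.1 FPKM added, 9 were higher and 3 lower, beside 11.3% and 13.2%. The plain FPKM ratio of ABCA1 was 4.11, from levels of 0.302 and 1.24. With libraries scaled by total counts without the 50 most abundant genes, 8 were higher, ABCG2 being added, and 3 lower, beside 9.57% and 11.5%. Of the 20 ABC genes at 10 CPM or more in a library, 4 were higher and 1 lower, beside 9.44% and 8.89%. Among these, ABCA1 and ABCC2 reached 10 CPM in the refractory library only and ABCA12 in the untreated library only. Their place under this filter therefore depends on the library in which they are high. At 1.5-fold 13 were higher and 5 lower (19.4% and 18.9% of all), and at 4-fold 2 were higher, ABCC2 and ABCC6, and 1 lower, ABCA12 (2.54% and 3.56%). The share of higher ABC genes was above that of all genes under each of these rules. The rules recount largely the same genes in the same 2 libraries, so they are not independent of each other. The share of lower ones was close to that of all genes at 4-fold (3.23% beside 3.56%) and at 1 CPM in both libraries (2 of 25 beside 7.69%).

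**Figure D1:**
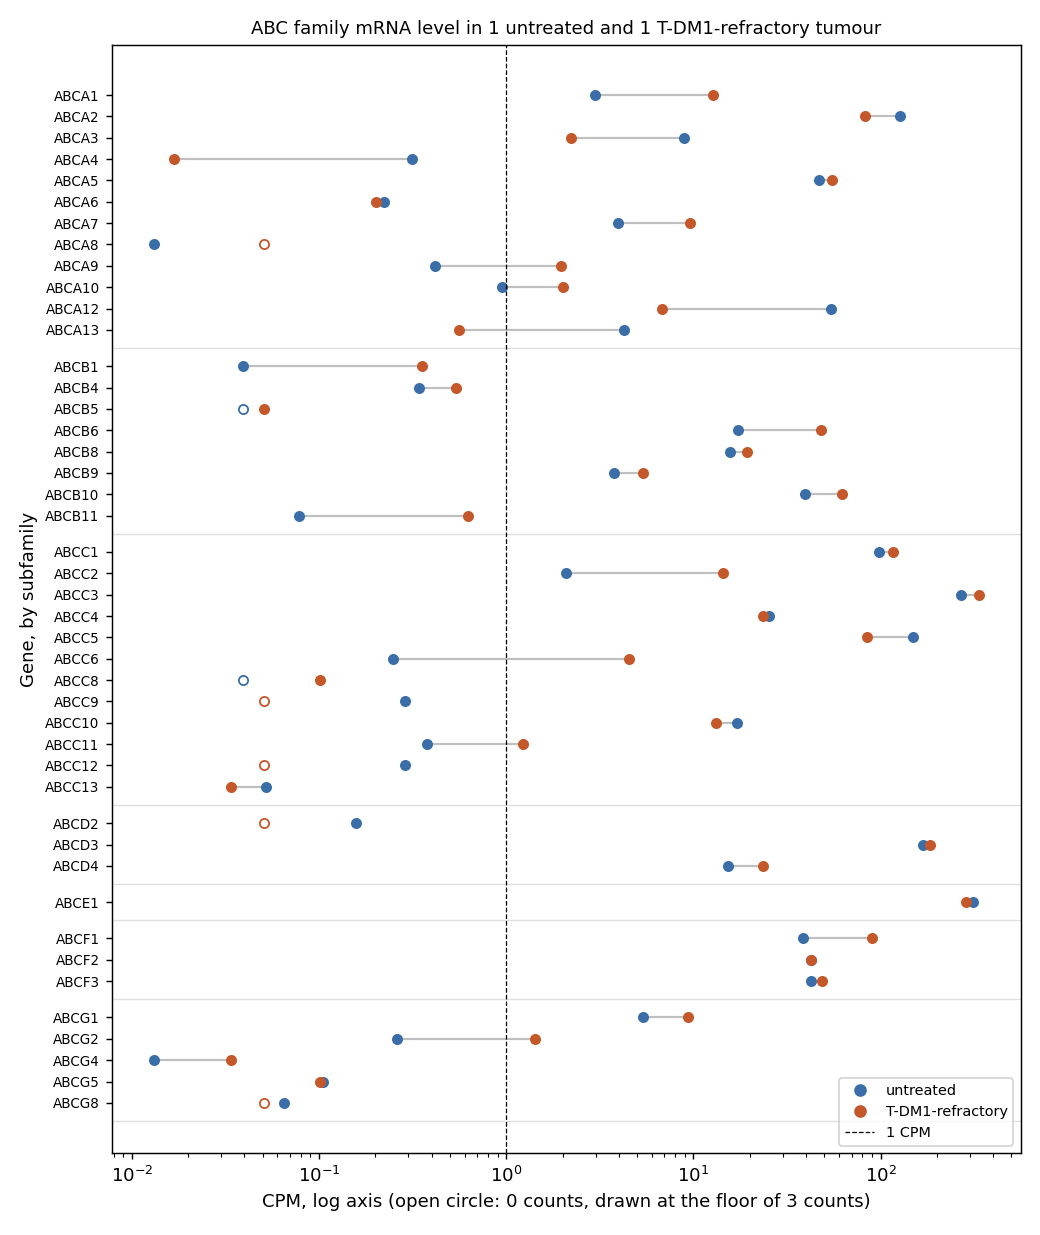
Level of 44 of the 46 ABC genes in the untreated (blue) and the T-DM1-refractory (orange) tumour, 1 library each, in CPM on a log axis, grouped by subfamily. Open circles mark 0 counts and are drawn at the floor of 3 counts, with no line joining them, and the dashed line is 1 CPM. The members above 100 CPM in either tumour differ by less than 2-fold, and the wide gaps are at lower levels (ABCA12 at 54.3 and 6.79 CPM, ABCC2 at 2.08 and 14.4 CPM, ABCC6 at 0.249 and 4.53 CPM).

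Summed by subfamily, the level was lower in A and higher in B, F and G. The 12 A genes together went from 249.8 CPM without treatment to 173.95 CPM in the refractory tumour, and their ratio was 0.696 (95% interval 0.68 to 0.713, counting error only). The largest falls in CPM within A were those of ABCA2 (126.7 and 82.9 CPM) and ABCA12 (54.3 and 6.79 CPM). Of the 9 described A genes, 5 had a log2 above 0 and 4 below. The 9 B genes stood at 107.55 and 175.45 CPM, a ratio of 1.63 (1.58 to 1.68). The 3 F genes had a ratio of 1.47 (1.43 to 1.51), with sums of 123.5 and 181 CPM, and without ABCF1 the other two summed to 84.9 and 91.04 CPM, a ratio of 1.07. The 5 G genes had the lowest sums, 5.83 and 10.9 CPM, and a ratio of 1.87 (1.65 to 2.11). Most of the G sum was ABCG1, at 5.39 and 9.32 CPM, within 2-fold. Subfamily C stood at 562 and 595 CPM (ratio 1.06, 1.04 to 1.07), D at 190.6 and 214.7 CPM (1.13, 1.10 to 1.15) and the single E gene at 309.6 and 286.7 CPM (0.926, 0.908 to 0.945). Sums hide opposite members: in A, 3 of 9 described genes were higher and 3 lower (median log2 0.23), while all 5 described B genes lay above 0, from 0.29 to 1.42.

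**Figure D2:**
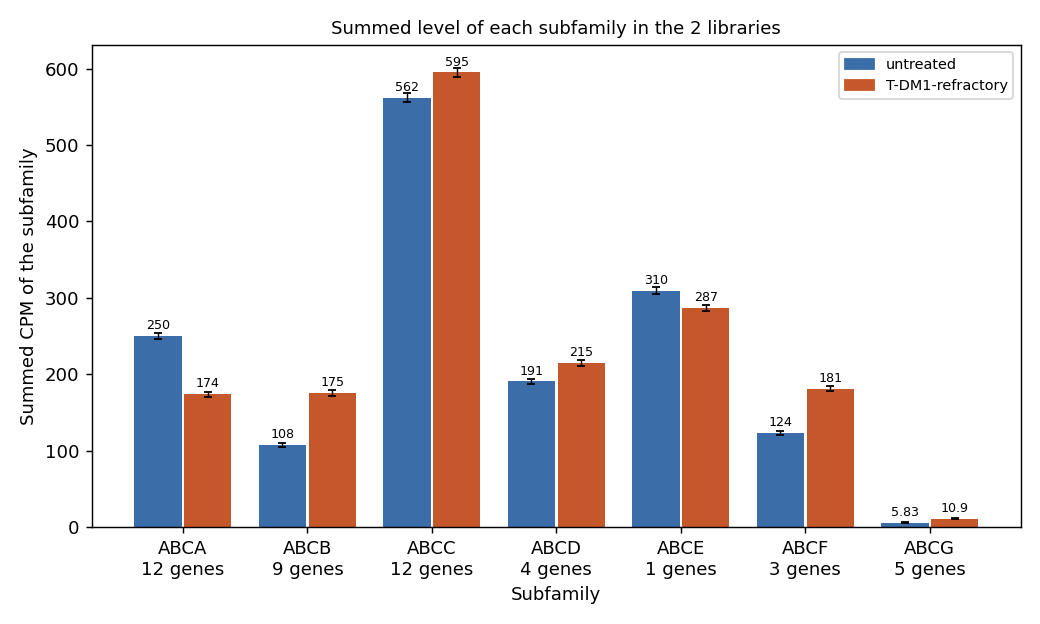
Summed CPM of each ABC subfamily in the untreated (blue) and the T-DM1-refractory (orange) tumour, with exact 95% Poisson intervals of the summed counts, which cover counting error only. The A sum is 249.8 against 173.95 CPM and the B sum 107.55 against 175.45 CPM.

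4 of the 10 called genes (ABCB6, ABCC2, ABCF1 and ABCA12) kept their call at each scaling, pseudocount and filter tried and on the FPKM scale with 1 or 0.1 FPKM added. For that reason their sequence just before the RefSeq gene start (build GRCh38.p14) is shown, 250 bases each on the gene's own strand. The windows printed for ABCB6 and ABCF1 hold the motifs searched, and those for ABCC2 and ABCA12 do not. Capitals mark matches on either strand to TGACNNNGC, the core of the antioxidant response element, and to ACGTG, the core of the hypoxia response element. The windows are ABCB6 at chr2:219218959-219219208 (minus strand), ABCF1 at chr6:30571192-30571441 (plus strand), ABCC2 at chr10:99782390-99782639 (plus strand) and ABCA12 at chr2:215138627-215138876 (minus strand).
ABCB6: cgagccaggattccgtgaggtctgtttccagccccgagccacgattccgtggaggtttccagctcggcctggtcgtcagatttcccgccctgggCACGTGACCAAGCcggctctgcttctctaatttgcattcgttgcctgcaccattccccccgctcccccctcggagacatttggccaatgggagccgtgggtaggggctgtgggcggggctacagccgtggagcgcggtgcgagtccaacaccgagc
ABCF1: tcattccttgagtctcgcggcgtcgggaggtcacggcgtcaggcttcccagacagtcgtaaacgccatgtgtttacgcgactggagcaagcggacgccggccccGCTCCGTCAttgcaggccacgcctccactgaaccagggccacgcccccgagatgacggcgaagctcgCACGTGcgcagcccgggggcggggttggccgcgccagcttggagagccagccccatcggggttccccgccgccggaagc
ABCC2: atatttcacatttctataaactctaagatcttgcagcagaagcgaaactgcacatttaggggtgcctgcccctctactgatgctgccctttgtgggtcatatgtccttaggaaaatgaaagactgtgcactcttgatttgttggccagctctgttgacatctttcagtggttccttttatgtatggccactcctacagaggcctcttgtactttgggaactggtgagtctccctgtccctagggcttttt
ABCA12: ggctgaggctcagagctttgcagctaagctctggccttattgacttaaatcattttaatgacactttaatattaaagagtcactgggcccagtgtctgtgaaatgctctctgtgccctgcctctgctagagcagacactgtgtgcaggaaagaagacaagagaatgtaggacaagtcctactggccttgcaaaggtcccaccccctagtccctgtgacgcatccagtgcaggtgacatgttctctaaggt

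In ABCB6 the antioxidant core lies at -152 to -144 from the gene start and overlaps the hypoxia core, which is read on both strands of a CACGTG palindrome. In ABCF1 the antioxidant core is on the minus strand at -146 to -138, and a separate CACGTG holds the hypoxia core near the start, at -79 to -74. The windows of ABCC2 and ABCA12 printed here hold neither, although another ABCA12 start, further into the gene, has a CACGTG. The RefSeq promoter table held 53 windows (250 bases before to 50 after a start) for 35 of the 46 ABC genes. TGACNNNGC was in 12 of them, 22.6%, beside 13.3% of all 35097 windows, and ACGTG in 14, 26.4%, beside 21.4%. By gene, TGACNNNGC was in 2 higher, 1 lower and 8 in-between members and 1 under 1 CPM. ACGTG was in 4 higher, 1 lower and 4 in-between members and 3 under 1 CPM. A link between motif and call was not tested. A match is a run of letters and not a site shown to be bound, and a gene can have several windows.

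Among the exporters of drugs and conjugates, the abundant members stayed within 2-fold and the larger differences were at low levels. Of 11 genes, 9 were described, 2 were higher and none lower (median log2 0.32). Of all described genes, 9.80% were higher and 11.0% lower. ABCC2 (MRP2, chromosome 10, 99782640 to 99852594), the apical exporter of glutathione and glucuronide conjugates, had 159 counts in the untreated and 857 in the refractory library, or 2.08 and 14.4 CPM. Its ratio was 6.95 (95% interval 5.86 to 8.28) and its log2 2.33, the largest of the described ABC genes on that scale. In the authors' deposited table its p-value was 0.0157, from a comparison of 1 library with 1. ABCC6 (chromosome 16, 16149565 to 16223494), the transporter whose loss causes pseudoxanthoma elasticum, stood at 0.249 and 4.53 CPM, a ratio of 18.2 (11.5 to 30.8). Its pseudogenes are near-identical copies and were higher too, ABCC6P1 at 0.183 and 1.48 CPM and ABCC6P2 at 0 and 0.253 CPM. The division of reads among the 3 is uncertain, and the deposited counts of ABCC6 are not whole, 18.72 and 269.44. RefSeq also lists pseudogenes of ABCA3, ABCB10, ABCE1 and ABCF2, and whether reads were shared with these was not tested. Unlike those of ABCC6, the deposited counts of ABCA3, ABCB10 and ABCF2 are whole.

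ABCC3 (MRP3, the basolateral counterpart of ABCC2) had the highest FPKM of these exporters in both tumours, 56.4 and 69.0, with 269.7 and 336.2 CPM (ratio 1.25, 1.22 to 1.27). FPKM, which divides fragments by gene length and depth, is used wherever levels of different genes are set beside each other. ABCC5, an exporter of cyclic nucleotides, was next in the untreated tumour with an FPKM of 42.4 and stood at 22.6 in the refractory one. In CPM it went from 148.2 to 84.7, a ratio of 0.572 (0.553 to 0.591), within the 2-fold limit. ABCC1 (MRP1), the exporter of glutathione conjugates, had FPKM of 16.2 and 18.7 and a CPM ratio of 1.19 (1.15 to 1.23). ABCC4, a further cyclic nucleotide exporter, stood at 25.4 and 23.4 CPM, and ABCC10 at 17.0 and 13.2 CPM.

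The 2 exporters best known from multidrug resistance were scarce in both tumours. ABCB1 had 3 and 21 counts, or 0.0392 and 0.354 CPM, a ratio of 9.02 whose interval runs from 2.69 to 47.2, and its FPKM in the refractory tumour was 0.0792 against 3.05 for ABCC2. ABCG2 (BCRP) had 20 and 85 counts, or 0.262 and 1.43 CPM. Its plain ratio was 5.48 (3.33 to 9.41), while its log2 after adding 1 CPM was 0.95, just inside the 2-fold limit. ABCC11, with 29 and 73 counts, had a ratio of 3.24 (2.08 to 5.17). It overlaps LONP2 by 3240 bases, a gene at 109.6 and 109.8 CPM, so reads of the 2 could be exchanged. ABCC12, which lies beside it, had 22 counts in the untreated and 0 in the refractory library and was at least 5.69-fold lower against a floor of 3 counts (exact 95% lower limit 4.25-fold). For ABCB1, ABCG2, ABCC2 and ABCC6 the authors' deposited table gives p-values of 0.0444, 0.0391, 0.0157 and 0.00082. In the authors' deposited table, ABC genes with p under 0.05 numbered 5 higher (10.9%, beside 2.37% of all genes) and 6 lower (13.0%, beside 4.83%). The other higher one was ABCB11, and the lower ones were ABCA4, ABCA12, ABCA13, ABCC9, ABCC12 and ABCD2, of which only ABCA12 and ABCA13 were described. The 2 groups differ in how many genes are scarce. Of the 29972 genes behind the shares of all genes, 15805 were under 1 CPM in both libraries, beside 15 of the 46 ABC genes. These shares are therefore not of like genes.

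**Figure D3:**
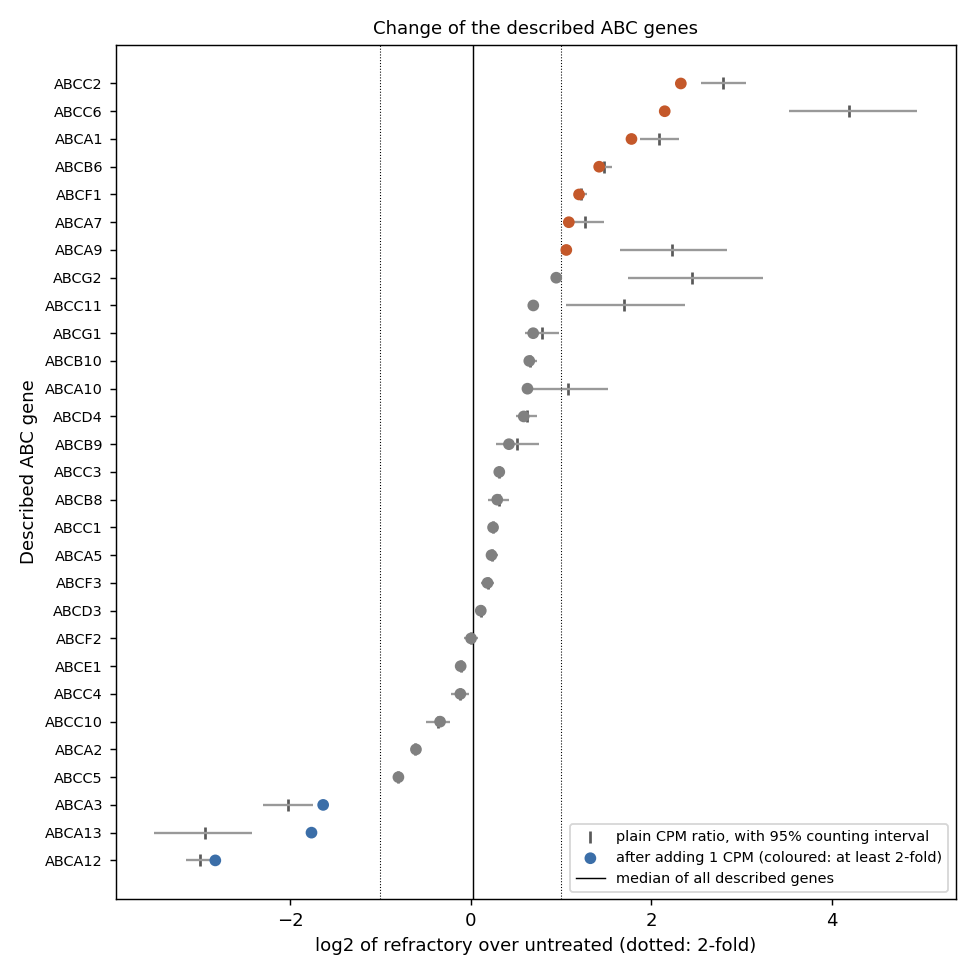
Change of 29 of the 31 described ABC genes as log2 of refractory over untreated. Filled circles are values after adding 1 CPM (orange at least 2-fold higher, blue at least 2-fold lower), grey ticks and bars are plain CPM ratios with exact 95% counting intervals, the solid line is the median of all described genes (0.03) and dotted lines are 2-fold. ABCC2 lies at 2.33 and ABCA12 at -2.83, and the ticks of ABCG2, ABCC11 and ABCA10 lie past 2-fold while their circles do not.

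Sterol and phospholipid transporters split in direction. Of 10 genes 6 were described, 2 higher, 2 lower and 2 between (median log2 0.04), beside 9.80% higher and 11.0% lower of all described genes. ABCA1 (chromosome 9, 104781006 to 104928155), which loads cholesterol and phospholipid onto apolipoprotein A-I, stood at 2.98 and 12.7 CPM, a ratio of 4.25 (3.66 to 4.95). Its span overlaps that of NIPSNAP3B, which went the other way (395 and 89 counts). ABCA7, a lipid transporter linked to phagocytosis (chromosome 19, 1040107 to 1065572), stood at 3.96 and 9.54 CPM, a ratio of 2.41 (2.09 to 2.78). ABCG1, which moves sterol to high-density lipoprotein, stood at 5.39 and 9.32 CPM, a ratio of 1.73 (1.52 to 1.97), so all 3 of these genes had a log2 above 0 and ABCG1 stayed inside 2-fold.

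The lower members of the group were ABCA12 and ABCA3. ABCA12 (chromosome 2, 214931542 to 215138626), which supplies the lipids of the skin barrier, had 4149 counts in the untreated and 403 in the refractory library. That is 54.3 and 6.79 CPM, 7.99-fold lower (7.21 to 8.87), and its FPKM rank among the 46 ABC genes went from 14 to 25. ABCA3 (chromosome 16, 2275881 to 2340728), the surfactant lipid transporter of lamellar bodies, stood at 8.95 and 2.21 CPM, 4.05-fold lower (3.36 to 4.92). ABCA2, a lysosomal lipid transporter, was the most abundant A gene per length in both tumours, with FPKM of 16.3 and 10.5, and stood at 126.7 and 82.9 CPM, a ratio of 0.655 (0.632 to 0.677). ABCA4, the retinal transporter, had 24 and 1 counts. ABCG4, ABCG5 and ABCG8, of which the last 2 form the apical sterol exporter of gut and liver, had at most 8 counts in either library.

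Of the other A genes, ABCA13, a very large member, stood at 4.28 and 0.556 CPM and was 7.69-fold lower (5.37 to 11.4). The described genes of the A cluster on chromosome 17 all had ratios above 1, of unlike size. ABCA5 stood at 46.8 and 55.1 CPM (ratio 1.18, 1.12 to 1.23), ABCA10 at 0.955 and 2.02 CPM (2.12, 1.57 to 2.87) and ABCA9 at 0.419 and 1.96 CPM (4.67, 3.14 to 7.14). ABCA6 had 17 and 12 counts, and ABCA8 had 1 and 0, and the counting intervals of both held a ratio of 1. Within this cluster only ABCA5 was above 3 CPM in either tumour.

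All 4 mitochondrial and heme-linked B genes had a ratio above 1, and ABCB6 was past 2-fold. ABCB6 (chromosome 2, 219209772 to 219218958), a porphyrin transporter, had 1320 and 2845 counts, or 17.3 and 47.95 CPM, a ratio of 2.78 (2.60 to 2.97). ABCB10, an inner-membrane protein needed for heme synthesis, stood at 39.5 and 62.5 CPM (1.58, 1.51 to 1.66). ABCB8, a further protein of the inner membrane, stood at 15.6 and 19.35 CPM (1.24, 1.14 to 1.35). The median log2 of the 4 was 0.48. Their partners in heme and iron-sulphur synthesis had a median of 0.11, and none of 12 was past 2-fold after adding 1 CPM. PPOX, at 2.56 and 5.31 CPM, and the iron importer SLC25A37, at 52.1 and 25.9 CPM, were the widest in each direction. The plain ratios of PPOX and SLC25A37, 2.07 and 0.498, lay just past 2-fold. ABCB9, a lysosomal peptide transporter, stood at 3.75 and 5.38 CPM. Its relatives TAP1 and TAP2, ABC genes under other symbols that carry peptides to MHC class I, stood at 57.8 and 73.7 CPM and at 74.96 and 110.3 CPM. Among 8 class I loading partners 1 was higher, TAPBP at 43.9 and 134.96 CPM.

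The peroxisomal and ribosomal members were among the most abundant of the family per length. ABCD3, a peroxisomal importer of fatty and bile acid precursors, was the third most abundant in both tumours with FPKM of 55.3 and 59.4 and had a CPM ratio of 1.08 (1.05 to 1.11). ABCD2, an importer of very long chain fatty acids, had 12 and 0 counts, at least 3.10-fold lower at the floor (exact 95% lower limit 2.16-fold). ABCD4, which takes part in the release of cobalamin from lysosomes, stood at 15.3 and 23.5 CPM (1.54, 1.42 to 1.66). Of 10 peroxisomal partner genes 1 was lower, the acyl-CoA synthetase ACSL1 (469.9 and 184.9 CPM), and none higher. None of 5 cobalamin genes was past 2-fold, TCN2 being nearest at 11.3 and 22.1 CPM.

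ABCE1, the ATPase that splits ribosomes after termination, ranked first in FPKM in both tumours, 79.9 and 72.7, and had a CPM ratio of 0.926 (0.908 to 0.945). ABCF1 (chromosome 6, 30571442 to 30591522), a factor in translation initiation, had 2952 and 5338 counts, or 38.6 and 89.97 CPM, a ratio of 2.33 (2.23 to 2.44). ABCF2 stood at 42.6 and 42.7 CPM, and was the only described ABC gene whose counting interval held 1 (0.952 to 1.06). ABCF3 stood at 42.4 and 48.3 CPM. None of 10 partner genes of ribosome recycling and initiation was past 2-fold (median log2 -0.09), PELO, the ribosome rescue partner of ABCE1, standing at 36.2 and 22.1 CPM.

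15 ABC genes were under 1 CPM in both tumours: ABCA4, ABCA6, ABCA8, ABCB1, ABCB4, ABCB5, ABCB11, ABCC8, ABCC9, ABCC12, ABCC13, ABCD2, ABCG4, ABCG5 and ABCG8. Their highest values were 0.340 CPM without treatment and 0.624 CPM in the refractory tumour. ABCC13, with 4 and 2 counts, is classed by RefSeq as a transcribed pseudogene and was kept because its symbol fits the rule. ABCB11, the bile salt export pump of hepatocytes, had 6 and 37 counts, a ratio of 7.95 (3.32 to 23.0), and ABCB4, the phosphatidylcholine floppase of bile, had 26 and 32. ABCC8 and ABCC9 encode the sulphonylurea receptor subunits of the ATP-sensitive potassium channel. ABCC8 had 0 and 6 counts, at least 2.58-fold higher against the floor of 3 counts, with an exact 95% lower limit of 1.52. ABCC9 had 22 and 0, at least 5.69-fold lower against that floor, with an exact lower limit of 4.25-fold. Of the pore subunits, KCNJ8 had no count in either library and KCNJ11 stood at 1.70 and 0.405 CPM. At these depths 3 counts, the floor used for a count of 0, correspond to 0.0392 CPM (untreated) and 0.0506 CPM (refractory). CFTR, the chloride channel of the C subfamily under its own symbol, had 0 and 2 counts.

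The ABC genes were next set beside the genes around them on the chromosome. For each described member, the 20 nearest described genes (10 on each side) were taken in the table's order. The neighbours of ABCF1 on chromosome 6 had a median log2 of 0.68 and 8 of 20 were higher and 1 lower. ABCF1 itself stood 0.52 above that median. ABCB6 stood at 1.42 beside a neighbour median of 0.43, and ABCA12 at -2.83 beside -0.42, where 6 of 20 neighbours were lower. ABCC2 stood at 2.33 beside 0.09, ABCA1 at 1.78 beside -0.14 and ABCC6 at 2.15 beside -0.18. ABCA3 went against its surroundings, at -1.63 beside 0.40. ABCC1 and ABCC6 are adjacent on chromosome 16 and share nearly all of these neighbours, yet had log2 values of 0.25 and 2.15. The highest neighbour of ABCC6 was its pseudogene ABCC6P1, with a log2 of 1.07, and the division of reads between them is uncertain. The part of neighbourhood in any single member's value was not tested.

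**Figure D4:**
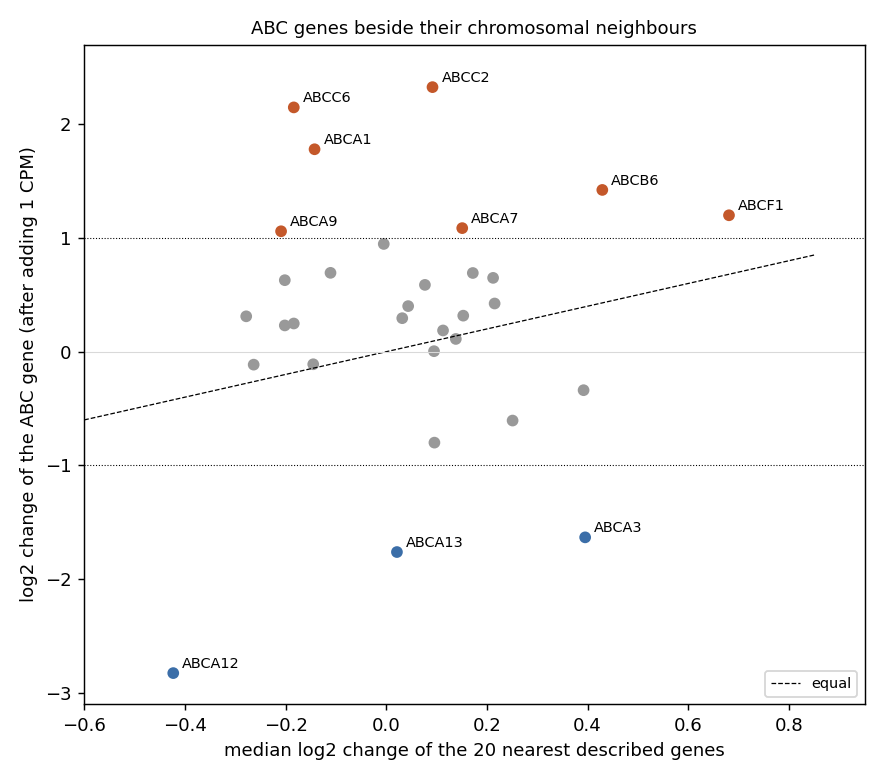
Log2 change of each of the 31 described ABC genes (vertical axis, after adding 1 CPM) against the median log2 change of its 20 nearest described genes (horizontal axis); the dashed line marks equal values, dotted lines are 2-fold, and orange and blue mark genes at least 2-fold higher and lower. ABCF1 has the highest neighbour median, 0.68, and ABCA12 the lowest, -0.42.

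Genes that feed or control ABC transporters were taken from fixed lists. For these and the partner lists above, the background was 9.80% of all described genes higher and 11.0% lower. In the list of glutathione supply and conjugation, whose products the C subfamily exports, 5 of 15 described genes were higher and none lower (median log2 0.55). They were GCLC (35.8 and 207.4 CPM), the rate-limiting enzyme of glutathione synthesis, GSR (30.5 and 102.1 CPM), GSTM2, GSTM3 (4.76 and 51.3 CPM) and GSTM4. GSTM genes are close paralogs, so the split of reads among them is uncertain. Of 19 described transcription factors known to control ABC genes, 4 were higher and 1 lower (median 0.08). The higher ones included EPAS1, a hypoxia-inducible factor, at 27.1 and 84.2 CPM. Also higher were the fatty acid receptor gene PPARA at 39.5 and 90.7 CPM and the retinoid X receptor gene RXRB at 21.3 and 46.99 CPM. HIF1A, a further hypoxia-inducible factor, went the other way within 2-fold, at 340.1 and 196.4 CPM (ratio 0.578). NFE2L2, the NRF2 gene, stood at 170.2 and 180.7 CPM, and the xenobiotic receptor gene NR1I2 was under 1 CPM in both (12 and 54 counts). The liver X receptors, which control ABCA1 and ABCG1, stood at 19.4 and 11.2 CPM (NR1H3) and 18.4 and 21.5 CPM (NR1H2).

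Of 9 described sterol acceptor and traffic genes, 2 were higher and 2 lower (median log2 -0.24). The intestinal cholesterol importer NPC1L1 stood at 0.536 and 54.8 CPM, a ratio of 102.2 (75.2 to 142.8), and the lipoprotein receptor SCARB1 at 26.8 and 59.8 CPM. The cholesterol esterifying enzyme SOAT1 was 11.3-fold lower (16.3 and 1.45 CPM, 9.05 to 14.2) and CLU 3.66-fold lower (56.8 and 15.5 CPM). None of 4 described genes of the list of other exporters and the vault was past 2-fold, the vault protein gene MVP standing at 121.8 and 138.4 CPM.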

How the data were processed

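RNA of 2 NCI-N87 tumours, 1 untreated and 1 T-DM1-refractory, was analysed from the authors' table of human genes. Its deposited read counts are expected counts, not always whole, and the deposited FPKM divides fragments by length and depth, per the file headers. The authors' log2 fold change and p-value compare 1 library with 1, and the method behind the p-value was not given in the sources used here. Per the submitters' processing notes, STAR 2.7.0e, RSEM 1.2.28 and edgeR 3.26.8 were used, with builds GRCh38 and GRCm38, in roles not stated.

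Expected counts were rounded and scaled by TMM factors (edgeR 4.0.16, R 4.3.3). Ratios carry exact 95% Clopper-Pearson intervals of 2 Poisson counts given their sum (SciPy 1.17.1). Intervals and floors cover counting error only, since PCR copies are not independent molecules. The interval and call code was tested on simulated data. Gene spans and promoters come from RefSeq (GRCh38.p14). Described ABC genes and list members past 2-fold are named, except a few that are not reported here but stay in counts, sums and medians. Members and lists were chosen with earlier results of these data known. Alternatives covered scaling, pseudocount, filter, unit and threshold.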

Additional observations from a re-analysis of the deposited data

How the results depend on the processing

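No paired analysis was possible because each group has 1 library. No called ABC gene changed sign under the scalings or on the FPKM scale (the other alternatives cannot change a sign), and of the described members only ABCF2 did. The counts of higher and lower ABC genes, 7 and 3, were 4 and 1 with a pseudocount of 5 CPM (all genes 821 and 840), 4 and 1 with genes of at least 10 CPM (lower genes in all 921), 4 and 1 on the FPKM scale with 1 FPKM added, 13 and 5 at 1.5-fold (all genes 2755 and 2677) and 2 and 1 at 4-fold (all genes 360 and 504). With a pseudocount of 0.1 CPM, 10 were higher, ABCG2, ABCC11 and ABCA10 being added. ABCA1 lost its call with 1 FPKM added, ABCC6 with 5 CPM added, and ABCA3, ABCA7, ABCA9 and ABCA13 with either. With 0.1 FPKM added, chosen after the data were seen, all 10 kept their call and ABCG2 and ABCC11 were added. With no filter the median log2 of the ABC genes was 0.19. With at least 1 CPM in both libraries, a filter chosen after the data were seen, 975 of all genes were lower, against 1555. With 1 tumour a group, variation between tumours was not measured.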

Other observations

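ABCC9, at 22 and 0 counts, lies on chromosome 12 close to LDHB, and the genes around it were looked at after their values were seen. Of the 40 genes listed nearest to it (20 on each side), 25 had more than 3 counts in the untreated library, and 7 of these 25 (28%) had 0 counts in the refractory library. Over the whole table this held for 1114 of 18004 genes (6.19%), a share not matched for level. The stretch was picked with values known, so setting the 2 shares side by side does not test a regional loss. Besides LDHB, at 252.6 and 0 CPM, the 7 were PDE3A, SLCO1C1, SLCO1A2, IAPP, LOC101928412 and SOX5, all at 1.90 CPM or less in the untreated tumour. Genes between them were retained, among them RECQL (120.96 and 107.99 CPM), GOLT1B (92.3 and 78.1 CPM) and CMAS (82.5 and 74.8 CPM), and 1 described gene was higher, CASC1 at 1.67 and 24.9 CPM.

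The same stretch holds the organic anion uptake transporters, which carry drugs and bile acids into cells and so work opposite to the ABC exporters. SLCO1B3 stood at 127.9 and 8.90 CPM, 14.4-fold lower in the refractory tumour (95% counting interval 13.2 to 15.7). SLCO1B1 stood at 24.4 and 0.169 CPM, 144.9-fold lower (78.6 to 302.6), and SLCO1B7 at 26.04 and 0.775 CPM, 33.6-fold lower (25.1 to 46.0). These 3 genes are close paralogs, and the split of reads among them is uncertain.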
